A study of Mus musculus with 4 samples.

Results

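Mouse intestinal tumour cells that carried both the stem cell receptor Lgr5 and a tuft cell marker (double positive cells) were set against the midpoint of the cells that carried only 1 of them. The midpoint was the log2 of the mean linear signal of both single positive arrays, which is the level that an equal mixture of these RNA pools would give. The comparison used 3 of the 4 arrays in the series, 1 array per population. It covered every gene above background on at least 1 of the 3, which was 18383 of the 22907 genes matched to probes. No group had a replicate, so no test was made between populations, and the number of arrays limits the precision. The scanner software gave an error for each spot, which put the median error of a difference from the midpoint at 0.19 on the log2 scale. It is printed beside the main differences and covers the reading of spots and not animals, sorts or labelling reactions.

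All cells were sorted as EpCAM+ tumour epithelium 14 days after tamoxifen, a drug that activates the CreERT2 recombinase. The sorted pools also gave signal for leukocyte and fibroblast genes, as described below. The mice had the genotype Lgr5CreERT2/+ with Ctnnb1lox(ex3)/ox(ex3), as the labels spell it, and the double negative cells carried the same alleles and had the same drug. The sorted populations were Lgr5+ tuft marker+ (double positive), Lgr5+ tuft marker- (Lgr5 single positive), Lgr5- tuft marker+ (tuft single positive) and Lgr5- tuft marker- (double negative), with IL17RB as the tuft marker. Cre was driven from the Lgr5 locus, so recombination began in Lgr5-expressing cells. The age of the mice, the part of the intestine and the number of animals behind each sort are not given in the sources used here.

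Lgr5 marks the cycling stem cells at the base of intestinal crypts and amplifies Wnt signalling. Removing the exon of Ctnnb1 that holds its degradation signals leaves a stable beta-catenin, which keeps Wnt target genes on. Tuft cells are rare chemosensory cells that signal through taste receptor components, phospholipase C and the channel Trpm5, and IL17RB is their receptor subunit for the cytokine IL-25.

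Each level is the log2 of a gene's signal after division by the 75th percentile of its array, so that 0 is that percentile. Between 60.2% and 69% of spots were well above background, the double positive array having the lowest share, and no spot was saturated. The lowest level well above background ran from -3.86 to -3.41 and was highest on the double positive array. Lower values were raised to it, and a difference against such a value is written as "at least".

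The sort genes followed the labels. Lgr5 stood at -0.78 in double positive cells and at -0.80 in Lgr5 single positive cells. It was not well above background in tuft single positive cells, at most -3.66, and stood at -3.19 in double negative cells. Double positive cells thus had as much Lgr5 signal as Lgr5 single positive cells, to within the error of 0.21, and at least 0.83 more than the midpoint (error 0.27). Il17rb stood at -0.38 in double positive, -3.13 in Lgr5 single positive and 0.12 in tuft single positive cells, and was not well above background in double negative cells. It was 0.36 above the midpoint (error 0.20) and lay inside the range of both. Both genes, or their proteins, chose the cells, so these levels are a check and not a result. Epcam, the gene of the gate, stood at 5.02, 5.22, 4.52 and 5.56 in double positive, Lgr5 single positive, tuft single positive and double negative cells, and Ctnnb1 at 5.07, 4.96, 4.38 and 5.23.

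Most genes of the double positive array lay near the midpoint. Of the 18383 genes, 16103 (87.6%) were less than 2-fold from it, 883 (4.8%) were at least 2-fold above and 1397 (7.6%) at least 2-fold below, with a median difference of -0.02. Against the range of the single positives, 6532 genes (35.5%) lay inside, 5717 (31.1%) less than 2-fold above both and 5087 (27.7%) less than 2-fold below both. At least 2-fold outside were 1047 genes (5.7%), which were 446 (2.43%) above both and 601 (3.27%) below both. The split of these moved with the scaling, since 42.6% of genes outside by at least 2-fold lay above, against 66% when arrays were scaled to their median and 56.1% after quantile normalization. For genes at least 2-fold from the midpoint the share above was 38.7%, against 59.1% with scaling to the median. That scaling put the median of all genes at 0.15, so values under it are to be read against 0.15.

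Among genes whose single positive levels were far apart, the double positive level was mostly between them. Of 847 genes at least 4-fold apart, 728 (86%) lay inside the range, 91 (10.7%) above both and 28 (3.31%) below both. Lists with many genes far apart are thus to be read against this 86% as well as the 35.5% over all genes. A single share of tuft single positive signal was then fitted over 14417 genes above background on all 3 arrays. The best share was 35%, with a median absolute deviation of 0.416, and shares from 23% to 46% came within 1% of that. The deviation was 0.421 at the midpoint, 0.448 from the Lgr5 single positive array alone and 0.520 from the tuft single positive array alone. No single share placed all genes, since the 652 genes higher in tuft single positive cells had a median share of 45.6% (quartiles 21.1% and 72.9%). The 195 genes higher in Lgr5 single positive cells had a median share of 61.8% (quartiles 36.4% and 88.8%).

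**Figure D1:**
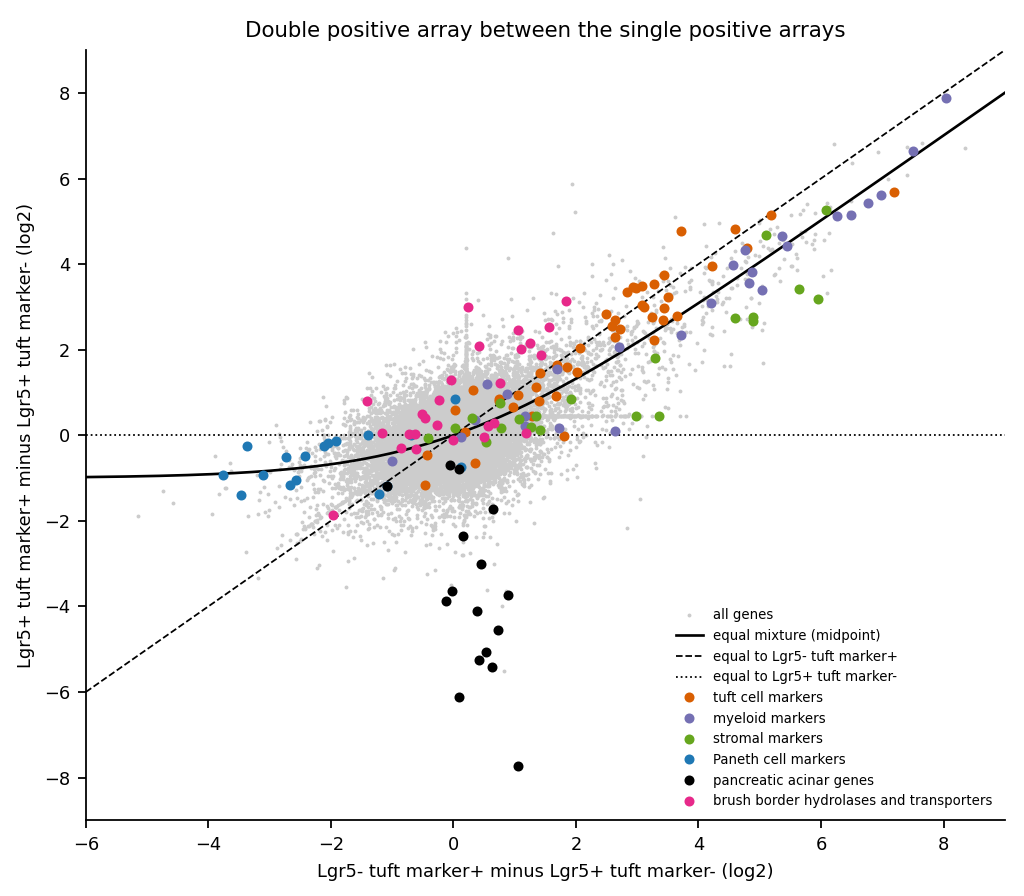
Log2 difference of double positive cells (y axis) and of tuft single positive cells (x axis) from Lgr5 single positive cells, 1 point per gene; the solid line is the equal mixture, the dashed and dotted lines the single positives, and colours mark 6 gene lists. Myeloid markers lie along the solid line, many tuft cell markers near the dashed line, and 13 of 16 pancreatic acinar genes at least 2-fold below both single positives.

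Among genes inside the range, the widest gaps between single positives belonged to macrophage genes on the tuft side and to Paneth or goblet cell genes on the Lgr5 side. Mmp12, a macrophage elastase, stood at 4.50 in double positive cells, between -3.39 in Lgr5 single positive and 4.64 in tuft single positive cells. Apoe, a lipoprotein of macrophages and many other cells, stood at 7.55 between 0.71 and 8.35. Sirpa, a myeloid inhibitory receptor, stood at 3.19 between -3.44 and 4.10. The double positive level of each was within 1 log2 unit of the tuft single positive level and more than 6 above the Lgr5 single positive level. Rgs1, a regulator of G protein signalling of leukocytes, and Tyrobp, a myeloid signalling adaptor, lay 0.33 and 0.37 below the midpoint (errors 0.20). Pla2g7, a secreted phospholipase of macrophages, lay 0.12 below it and was not well above background by its brightest probe in Lgr5 single positive cells. On the Lgr5 side, Mptx2, a pentraxin gene, stood at 4.86 between 6.16 and 1.41, and the alpha-defensin gene Defa26 at 4.37 between 5.29 and 1.52. Retnlb, a resistin-like goblet cell gene, stood at 1.32 between 3.16 and -0.78. Mptx1, Defa2 and Defa42 lay inside the range in the same way, 0.65 below, 0.41 above and 0.47 below the midpoint. Defensin genes, and Mptx1 and Mptx2, are near-identical copies whose probes may read each other's transcripts, so each value is uncertain.

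Tuft cell markers stood nearer to the tuft single positive level than to the midpoint. Of 46 measured members, 27 lay inside the range (35.5% over all genes) and 4 less than 2-fold below both (27.7%). Of all genes at least 4-fold apart, a class that held 27 of the 46 members, 86% lay inside. Less than 2-fold above both were 14 (31.1%), and at least 2-fold above both was 1 (2.43%). The median of all members was 0.52 above the midpoint, where all genes had -0.02. Their summed signal, in units of the array's 75th percentile, was 374 in double positive, 90.7 in Lgr5 single positive, 378 in tuft single positive and 78.2 in double negative cells. For the 27 members with single positive levels at least 4-fold apart, the share of tuft single positive signal that gives the double positive level had a median of 97.2%, from 34.7% to 216%.

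The members farthest above the midpoint were Plcb2, Trpm5 and Avil. Plcb2, the phospholipase of taste signalling, stood at 3.71, above -1.06 and 2.66, by 1.05 over the higher single positive. Trpm5, the cation channel that follows it, stood at 4.35, above 0.88 and 3.80, and Avil, an actin-bundling protein of the tuft cell brush, at 3.34, above 0.00 and 2.83. Their differences from the midpoint were 1.94, 1.36 and 1.32 (errors 0.20, 0.19 and 0.19). The other 3 probes of Plcb2 were dim, with a median difference of 0.11, and 1 of them was well above background in double positive cells and in neither single positive. The next members by their difference from the midpoint were Rgs13 at 1.28, Dclk1, the kinase most used as a tuft cell marker, at 1.25, and Ly6g6d and Alox5, the 5-lipoxygenase of leukotriene synthesis, at 1.18. Dclk1 stood at 4.22 in double positive cells against 0.73 and 3.81, and Alox5 at 1.25 against -2.49 and 0.94. The transcription factor genes Pou2f3 and Gfi1b lay 0.57 and 0.37 above the midpoint, and Spib stood at 2.20 against -1.33 and 1.95.

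Members at the other end included Ptprc, the gene for the leukocyte protein CD45, with the lowest share of the list at 34.7%. It stood at 1.82 in double positive and 3.33 in tuft single positive cells, and was not well above background in Lgr5 single positive cells. Rgs2 had a share of 42.4%. Gng13, a G protein subunit of taste cells, was not well above background in double positive cells and lay at least 1.19 below the midpoint. Ascl2, a stem cell transcription factor that is also in the tuft list, stood at -3.07 in double positive cells, below -1.92 and -2.38. Rgs13, Dclk1, Ly6g6d, Pou2f3, Spib, Gfi1b, Ptprc, Rgs2, Gng13 and Ascl2 were chosen after their values were seen. Genes of eicosanoid synthesis, the making of prostaglandins and leukotrienes, share 5 members with the tuft list. They had a median of 0.14, with 9 of 16 inside the range (35.5% over all genes). Hpgds, the prostaglandin D synthase, stood at -0.81, level with -0.78 in tuft single positive cells. Ptgis, the prostacyclin synthase, lay 1.09 below the midpoint, and its second probe was not well above background in double positive or tuft single positive cells.

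Myeloid markers lay between the single positives. Of 26 measured members 23 lay inside the range (35.5% over all genes, and 86% of all genes at least 4-fold apart). The list's median was -0.14, or 0.05 with arrays scaled to their median and 0.95 with the mean of log2 levels as midpoint. Of the 17 members at least 4-fold apart, 15 had a share between 25% and 75%, with a median of 44.4%. Over all 652 genes at least 4-fold higher in tuft single positive cells, the median share was 45.6%. Of these genes, 49.4% had a share between 25% and 75%. The myeloid median share was thus near that of all such genes. Adgre1, the macrophage protein F4/80, stood at 1.58 in double positive and 2.91 in tuft single positive cells, and was not well above background in Lgr5 single positive cells. S100a9, a neutrophil calcium-binding protein, stood at -0.81, beside -0.92 in Lgr5 single positive and 1.72 in tuft single positive cells. Mrc1, the macrophage mannose receptor, lay 0.94 below the midpoint, and Ccr2, a monocyte chemokine receptor, 0.90 above it. Adgre1 was chosen after its values were seen. The summed signal of the list was 850 in double positive, 590 in Lgr5 single positive, 930 in tuft single positive and 681 in double negative cells. The median levels were 1.79, -2.39, 2.70 and -1.72 in the same order. Itgam alone stood at 9.33, 8.98, 9.34 and 9.19, so the sums follow the brightest members and not the typical one. No myeloid gene is in the tuft list by name, but Ptprc, Lyn, Spib and Alox5 of that list are expressed by leukocytes too, and what these cells gave to the tuft signal was not tested. In a sorted pool, fewer cells of a type and less RNA per cell cannot be told apart.

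Stromal markers lay between the single positives, nearer to Lgr5 single positive cells in linear signal and nearer to tuft single positive cells in log2 level. Their median levels were -0.26, -2.48 and 0.98 in double positive, Lgr5 single positive and tuft single positive cells. Of 21 measured members 18 lay inside the range (35.5% over all genes, and 86% of all genes at least 4-fold apart). The list's median was -0.45. The 10 members at least 4-fold apart had a median share of 19.9%, from 3.90% to 74.2%. Col3a1, a fibrillar collagen, stood at 0.57 between -2.62 and 3.33, and lay 1.78 below the midpoint (error 0.20). Lum and Pdgfrb, a matrix proteoglycan and a growth factor receptor of fibroblasts, were not well above background in either Lgr5+ population and stood at -0.50 and -0.88 in tuft single positive cells. With the mean of log2 levels as the midpoint in place of the mean signal, the stromal median was 0.14, since that midpoint lies lower where the single positives are far apart.

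Secretory lineage markers on the Lgr5 side lay between the single positives. The 17 Paneth cell markers are genes of the crypt base cells that secrete antimicrobial proteins. Of these, 11 lay inside the range (35.5% over all genes, and 86% of all genes at least 4-fold apart). None lay at least 2-fold outside (5.7%). Their median was 0.27, or -0.06 over the mean of all probes, and the 10 far apart had a median share of 43.0%. Lyz1, the Paneth cell lysozyme, stood at 5.81 in both Lgr5+ populations and at 4.42 in tuft single positive cells. Nupr1, a stress-induced chromatin protein, lay 0.89 below the midpoint, Pnliprp2, a lipase, at least 0.79 below it, and Clec2h, a lectin gene, 0.84 above it. Of 20 goblet cell markers, genes of the mucus-secreting cells, 13 lay inside the range (35.5% over all genes, 86% over those far apart). The list had a median of 0.03, or -0.12 after normexp, and a median share of 48.5% for the 8 far apart. Over all 195 genes at least 4-fold higher in Lgr5 single positive cells, the median share was 61.8% (quartiles 36.4% and 88.8%). The Paneth and goblet medians were thus nearer to the Lgr5 single positive level, though inside those quartiles. Clca1, a secreted mucus protease, stood at 1.62, below 3.89 and 2.08, and Zg16, a mucus lectin, at 3.62, level with 3.65 in tuft single positive and below 5.72 in Lgr5 single positive cells. Lyz1 was chosen after its values were seen.

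**Figure D2:**
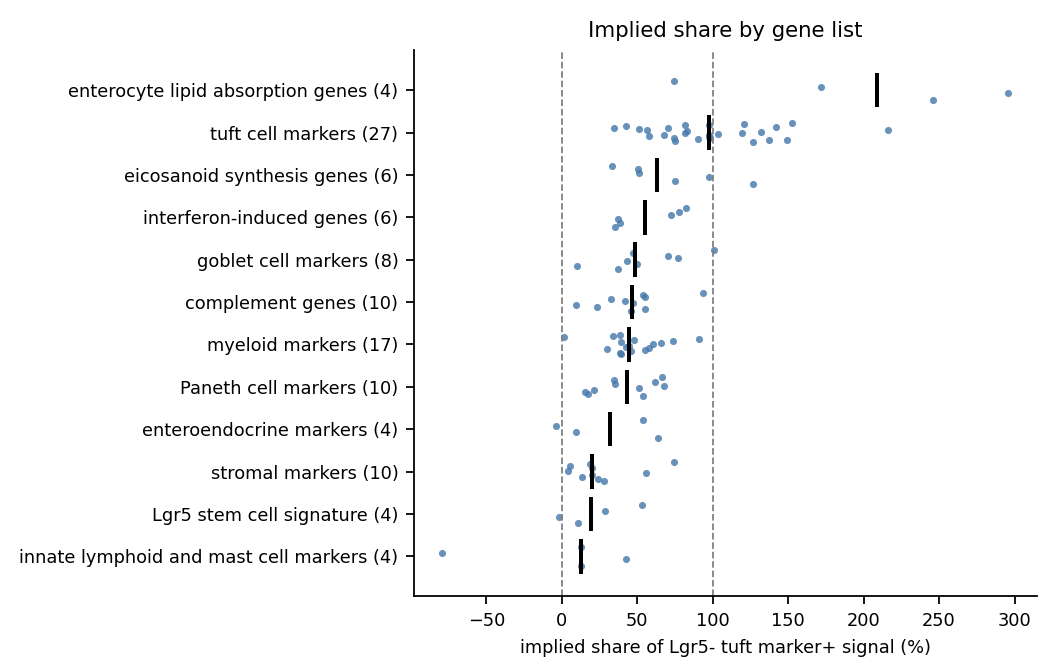
Share of tuft single positive signal, in percent, that gives the double positive level (x axis) for members of each list (y axis, with their number) at least 4-fold apart between the single positives; points are genes, bars medians, and dashed lines 0% and 100%. The stromal median is 19.9%, the myeloid 44.4%, the Paneth 43.0% and the tuft 97.2%.

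Whether the genes farthest above both single positives share a cell type was not tested. Cfd, complement factor D, a serine protease of the alternative complement pathway made by adipocytes and some other cells, stood at 1.60 in double positive cells. It stood at -3.62 in Lgr5 single positive, -1.64 in tuft single positive and -3.55 in double negative cells. Double positive cells were thus 9.41-fold above the higher single positive (log2 difference 3.23, error 0.22) and 35.5-fold above double negative cells. Its second probe stood 3.12 above the higher single positive. Against the midpoint Cfd was higher by 3.91 (error 0.20), and by 2.55 after normexp background correction.

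Mme, neprilysin, a peptidase of the brush border and of many other cells, stood at -0.38 in double positive cells. It stood at -3.38, -3.13 and -3.26 in Lgr5 single positive, tuft single positive and double negative cells, close to the background there. The double positive array was 6.76-fold above the higher single positive (2.76, error 0.33) and 7.36-fold above double negative cells. Its second probe was 1.06 above the higher single positive, and its difference from the midpoint was 2.87, or 1.17 after normexp.

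Retnla, a resistin-like protein of the gut and of macrophages, stood at 2.01 in double positive and -1.91 in tuft single positive cells. It was not well above background in the other populations, and stood 15.2-fold above the higher single positive (3.93, error 0.23). Scd1, the stearoyl-CoA desaturase that makes unsaturated fatty acids, stood at 1.52, above -3.22 and -1.59, by 3.11 (error 0.22). Ift122, a cilium transport protein, stood at 1.08, above -3.06 and -2.17, by 3.25 (error 0.23). Neither Retnla, Scd1 nor Ift122 was well above background in double negative cells, and each had 1 probe.

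The largest distance belonged to Agbl1, a carboxypeptidase that shortens polyglutamate chains, at 0.53 in double positive cells and not well above background elsewhere, at least 4.18 above both (error 0.44). Mansc4, Elp4, an elongator subunit, and Slc34a3, a phosphate carrier, were likewise well above background in double positive cells alone, at least 3.13, 2.99 and 2.50 above both. Bbs1, a cilium protein, was at least 2.62 above both. Rims2, a vesicle docking protein, was 2.76 above tuft single positive cells, and Ampd3, an AMP deaminase, 2.45 above them. The second probes of Rims2, Bbs1, Slc34a3 and Ampd3 were not well above background on any array, so each of these rests on 1 probe. The error for Elp4 was 1.46. These distances depend on the background correction, and after normexp the difference from the midpoint was 2.01 for Agbl1, 1.26 for Mansc4, 1.08 for Elp4, 1.06 for Slc34a3, 1.02 for Bbs1, 1.26 for Rims2 and 1.15 for Ampd3. It was 2.92 for Retnla, 2.40 for Scd1 and 2.18 for Ift122. With the mean of all probes it was 0.54 for Bbs1, 0.69 for Rims2 and 0.36 for Slc34a3.

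Most members of the lists that hold Cfd were not at least 2-fold above both single positives. Of 14 adipocyte markers, Cfd and Fabp4, a fatty acid binding protein of adipocytes and macrophages, lay at least 2-fold above both single positives, a share of 2.43% over all genes. Fabp4 stood at 1.90 in double positive cells, against -2.10, 0.16 and -2.17 in Lgr5 single positive, tuft single positive and double negative cells. Its second probe was not well above background on any array. Adipoq, adiponectin, which defines adipocytes, stood at -2.69 in double positive cells, below -1.59 and -2.53. The lipid droplet coat gene Plin1 stood at -2.49, between -1.81 and -2.59. Lpl, the lipoprotein lipase, stood at 0.78 near the tuft single positive level of 0.89. The list's summed signal was 30.8, 18.3, 25.7 and 16.6 in double positive, Lgr5 single positive, tuft single positive and double negative cells, and its median was 0.21. Adipoq and Plin1 were chosen after their values were seen.

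Of 22 complement genes 14 lay inside the range (35.5% over all genes, and 86% of all genes at least 4-fold apart). The list had a median of -0.34, or 0.27 with the mean of log2 levels as midpoint. C1rb, a subunit of the first complement component, stood at -2.83 in double positive cells, below -0.45 and -0.08, by 2.39 (error 0.32). Cfi, the complement factor I protease, stood at -2.88, between -0.56 and at most -3.35, and lay 1.51 below the midpoint. The C1q subunits C1qa, C1qb and C1qc, which are also in the myeloid list, all lay inside the range, and were chosen after their values were seen. The second probe of C1rb was not well above background on any array. Cfd was thus the single complement gene at least 2-fold above both, and C1rb the single one at least 2-fold below both.

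**Figure D3:**
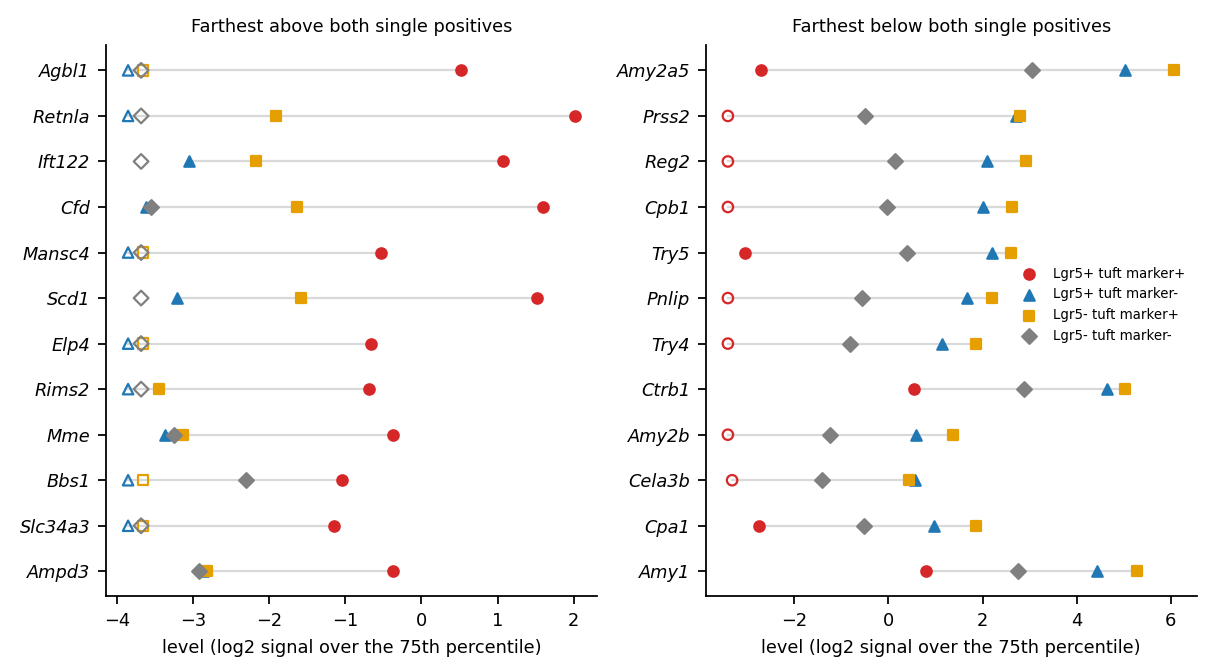
Log2 level relative to the array's 75th percentile (x axis) on all 4 arrays for the 12 genes farthest above both single positives (left) and the 12 farthest below both (right); open symbols were not well above background. Cfd stands at 1.60 in double positive cells and at -1.64 or lower elsewhere, and Amy2a5 at -2.72 against 3.05 or higher elsewhere.

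Enterocyte genes leaned above both single positives. Of 26 measured brush border hydrolases and transporters, the digestive enzymes and carriers of the absorptive cell surface, 9 were at least 2-fold above the midpoint (4.8% over all genes) and 1 below. Against the range, 5 lay at least 2-fold above both (2.43% over all genes) and 13 less than 2-fold above both (31.1%). Inside lay 6 (35.5%), and 2 less than 2-fold below both (27.7%). The list's median was 0.67, with 0.57 for double negative cells against the same midpoint. The summed signal was 87.6 in double positive and 88.4 in double negative cells, against 46.2 in Lgr5 single positive and 51.4 in tuft single positive cells.

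Slc2a5, the fructose carrier, stood at 0.10 in double positive, -2.00 in Lgr5 single positive, -1.57 in tuft single positive and 0.47 in double negative cells. It was 1.67 above the higher single positive and below double negative cells. Alpi, the intestinal alkaline phosphatase, stood at 4.60, 3.32, 3.27 and 4.50 in the same order. Both were thus high in double positive and double negative cells and low in both single positives. Tmprss15, enteropeptidase, which activates trypsinogen, stood at -0.71 in double positive and -2.02 in tuft single positive cells, and was not well above background in the others. Slc6a19, a carrier of neutral amino acids, stood at -1.40, above -2.80 in tuft single positive cells, and Mme is the fifth. Sis, sucrase-isomaltase, and Khk, ketohexokinase, lay 0.04 and 0.10 below the midpoint. Alpi, Slc6a19, Sis and Khk were chosen after their values were seen.

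Lipid absorption genes were placed likewise. Of 20 measured members 6 were at least 2-fold above the midpoint (4.8% over all genes) and none below. Against the range, 3 lay at least 2-fold above both (2.43% over all genes), 9 less than 2-fold above both (31.1%), 6 inside (35.5%) and 2 less than 2-fold below both. Their median was 0.73, with 0.55 for double negative cells. Apoc3, an apolipoprotein of chylomicrons, stood at 2.37 in double positive, -1.64 in Lgr5 single positive, 0.97 in tuft single positive and -0.51 in double negative cells. Apoa4, another, stood at 3.88, 0.76, 2.81 and 1.85. Cd36, a fatty acid receptor of enterocytes and macrophages, stood at 0.28, -3.39, -0.42 and -3.09. All 3 were highest in double positive cells, by 1.40, 1.07 and 0.70 over tuft single positive cells (errors 0.20, 0.20 and 0.21). The other 2 probes of Apoc3 had a median difference from the midpoint of 0.44, against 2.18 for its brightest.

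Pancreatic acinar genes lay below both single positives. These genes code for the digestive enzymes that the exocrine pancreas secretes. Of 16 measured members, 13 were at least 2-fold below both single positives (3.27% over all genes), 3 less than 2-fold below both and none inside the range, with a median of 4.03 below the midpoint. The summed signal of the list was 17.9 in double positive, 120 in Lgr5 single positive, 160 in tuft single positive and 34.9 in double negative cells. Most of the double positive sum came from Clps, which stood apart as given below. The median levels of the list were -2.74, 1.82, 2.07 and -0.28 in the same order. Both measures were thus high in both single positives, lower in double negative and lowest in double positive cells.

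Amy2a5, pancreatic amylase, stood at -2.72 in double positive cells against 5.02, 6.08 and 3.05 in Lgr5 single positive, tuft single positive and double negative cells. That was 214-fold below the lower single positive (log2 difference 7.74, error 0.32), where its second probe gave a log2 difference of 4.32. Prss2, a trypsinogen, was not well above background in double positive cells against 2.71 and 2.80, and so was at least 69.9-fold lower. Cpb1, a carboxypeptidase, was at least 43.0-fold, Pnlip, pancreatic lipase, at least 33.8-fold and Try4, another trypsinogen, at least 23.5-fold lower. Reg2, a secreted lectin of the pancreas that is not in the list, was at least 45.3-fold lower. Ctrb1, chymotrypsinogen B, was well above background on all arrays, at 0.55, 4.65, 5.04 and 2.89, and 17.2-fold lower (4.10, error 0.21). The trypsinogen gene Try5, the carboxypeptidase gene Cpa1 and the elastase gene Cela3b stood 5.25, 3.72 and at least 3.77 below the lower single positive. The amylase gene Amy1 stood 3.63 below it, and at least 5.97 by its second probe. Amy2b was not well above background in double positive cells against 0.58 and 1.38. The lower limits hold for the background subtraction of the scanner software. After normexp the difference from the midpoint was -3.76 for Prss2, against -6.17, and -3.27 for Cpb1, -3.63 for Reg2, -2.98 for Pnlip and -2.75 for Try4, while Amy2a5 had -6.14 and Ctrb1 -4.00. Amylase genes, and the trypsinogen genes Prss2, Try4 and Try5, are near-identical copies whose probes may read each other, so these are not independent readings.

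Clps, the lipase cofactor, which is also in the Paneth list, stood apart at 3.43, 4.62, 3.54 and 2.64, higher in double positive than in double negative cells. Ctrl and Prss1 lay 0.78 and 0.64 below the lower single positive. Clps, Ctrl and Prss1 were chosen after their values were seen. What pancreatic tissue or RNA gave to these signals was not tested. The list's summed signals and median levels above are the measurements that bear on it.

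From the acinar genes far below both single positives, 5 were picked by hand. They are not the farthest 5, since Cpb1, Try5 and Ctrb1 lay farther below both than Cela3b. Promoters of the 5 are shown here. Each is the 100 bases before the RefSeq transcription start on GRCm38.p6, read along the gene, with any TATAAA in capitals. The regions are chr3:113258700-113258799 (minus strand) for Amy2a5, chr6:41521676-41521775 (plus) for Prss2, chr19:58670265-58670364 (plus) for Pnlip, chr6:41302172-41302271 (plus) for Try4 and chr4:137430521-137430620 (minus) for Cela3b.
Amy2a5: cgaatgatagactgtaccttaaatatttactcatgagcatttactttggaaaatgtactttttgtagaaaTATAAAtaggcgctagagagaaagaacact
Prss2: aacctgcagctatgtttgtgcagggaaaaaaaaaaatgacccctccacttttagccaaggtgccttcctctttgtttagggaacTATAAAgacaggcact
Pnlip: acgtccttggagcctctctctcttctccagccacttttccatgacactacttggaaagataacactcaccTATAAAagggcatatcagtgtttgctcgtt
Try4: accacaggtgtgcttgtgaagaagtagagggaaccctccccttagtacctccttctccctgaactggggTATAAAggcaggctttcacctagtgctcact
Cela3b: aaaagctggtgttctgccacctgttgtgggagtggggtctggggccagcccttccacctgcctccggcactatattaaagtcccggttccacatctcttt

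The motif TATAAA began 30 bases before the start in Amy2a5 and Pnlip, 31 in Try4 and 16 in Prss2, and was not in the window of Cela3b. Promoters were in the table for 11 of the 13 acinar genes at least 2-fold below both. On either strand, TATAAA was in 5 of the 11 (45.5%) and in 5.56% of all 32851 promoter windows used. The first share counts genes, with any promoter of a gene, and the second counts windows, with 1 chromosome left out. CACCTG was in 4 of the 11 (36.4%) and 7.03% of all, and TGGGAA in 3 (27.3%) and 8.67%. The motifs were searched one by one, so that hits of different motifs may overlap, and a match describes the letters of the window only. Of the 5 brush border genes at least 2-fold above both, 1 had TATAAA, none CACCTG and 1 TGGGAA. Among other genes far above both, the window of Retnla had TATAAA 30 bases before the start and that of Cfd had none.

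Enteroendocrine and some non-epithelial markers leaned below both single positives. Of 24 measured enteroendocrine markers, genes of the hormone-secreting cells, 6 were at least 2-fold below the midpoint (7.6% over all genes) and 1 above. Against the range, 3 lay at least 2-fold below both (3.27% over all genes), 10 less than 2-fold below both (27.7%) and 8 inside (35.5%). Less than 2-fold above both were 2 (31.1%), and at least 2-fold above both was 1 (2.43%). The list's median was -0.40, with 0.23 for double negative cells. Cck, cholecystokinin, was not well above background in double positive cells, against -0.26, -1.22 and 1.39 in Lgr5 single positive, tuft single positive and double negative cells, and so was at least 2.19 below both single positives. Ghrl, ghrelin, stood at -0.32, below 2.23, 0.82 and 1.99, and Gip, the incretin hormone, at -2.37, below -0.62, -1.13 and 0.40. All 3 hormone genes were lowest in double positive cells. Nts, neurotensin, was not well above background in double positive cells, at least 2.04 below the midpoint. Pcsk1, the prohormone convertase, went the other way at -1.27, above -3.65 and at most -3.66, by 2.38 (error 0.33). Chgb, chromogranin B, lay inside the range at 3.93. Ghrl, Gip and Chgb were chosen after their values were seen.

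T and NK cell markers had a median of -0.54, with 3 of 18 at least 2-fold below the midpoint (7.6% over all genes) and 12 less than 2-fold below both (27.7%). Gzma, a granzyme, stood at -0.30 near the Lgr5 single positive level of -0.52, and 2.09 below the midpoint. Gzmb and the costimulator gene Cd28 lay 1.53 and 1.68 below it. Endothelial markers had a median of -0.38, with 5 of 11 at least 2-fold below the midpoint (7.6% over all genes) and 2 at least 2-fold below both (3.27%). Vwf, von Willebrand factor, and Flt1, a receptor for vascular growth factor, were not well above background in double positive cells, and Pecam1, an endothelial junction protein, lay 1.53 below the midpoint. Innate lymphoid and mast cell markers had a median of -0.32, which became 0.01 with the other detection flag, and 4 of 14 lay at least 2-fold below the midpoint (7.6% over all genes). Among them Klrg1, an inhibitory receptor, lay at least 1.81 below and turned to 0.02 with the mean of its probes, Rora, a nuclear receptor, lay 1.68 below and Fcer1a, the IgE receptor, 1.46 below. Of 9 B and plasma cell markers 5 lay inside the range (35.5% over all genes), with a median of -0.14, or 0.07 after quantile normalization. Cd79b, a B cell receptor subunit, lay at least 0.97 below the midpoint by a level not well above background. Blnk, its linker protein, lay 0.53 above. Of 7 erythroid markers, with a median of -0.18, 5 lay less than 2-fold below both (27.7% over all genes). The globin gene Hba-a2 lay 1.17, Epor 0.79 and Slc4a1 0.63 below the midpoint. Of 9 MHC class II genes 7 lay inside the range (35.5% over all genes). The list had a median of -0.07, or 0.09 with arrays scaled to their median. H2-DMb2 lay at least 1.77, H2-Ob 1.38 and H2-Aa 0.63 below the midpoint.

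**Figure D4:**
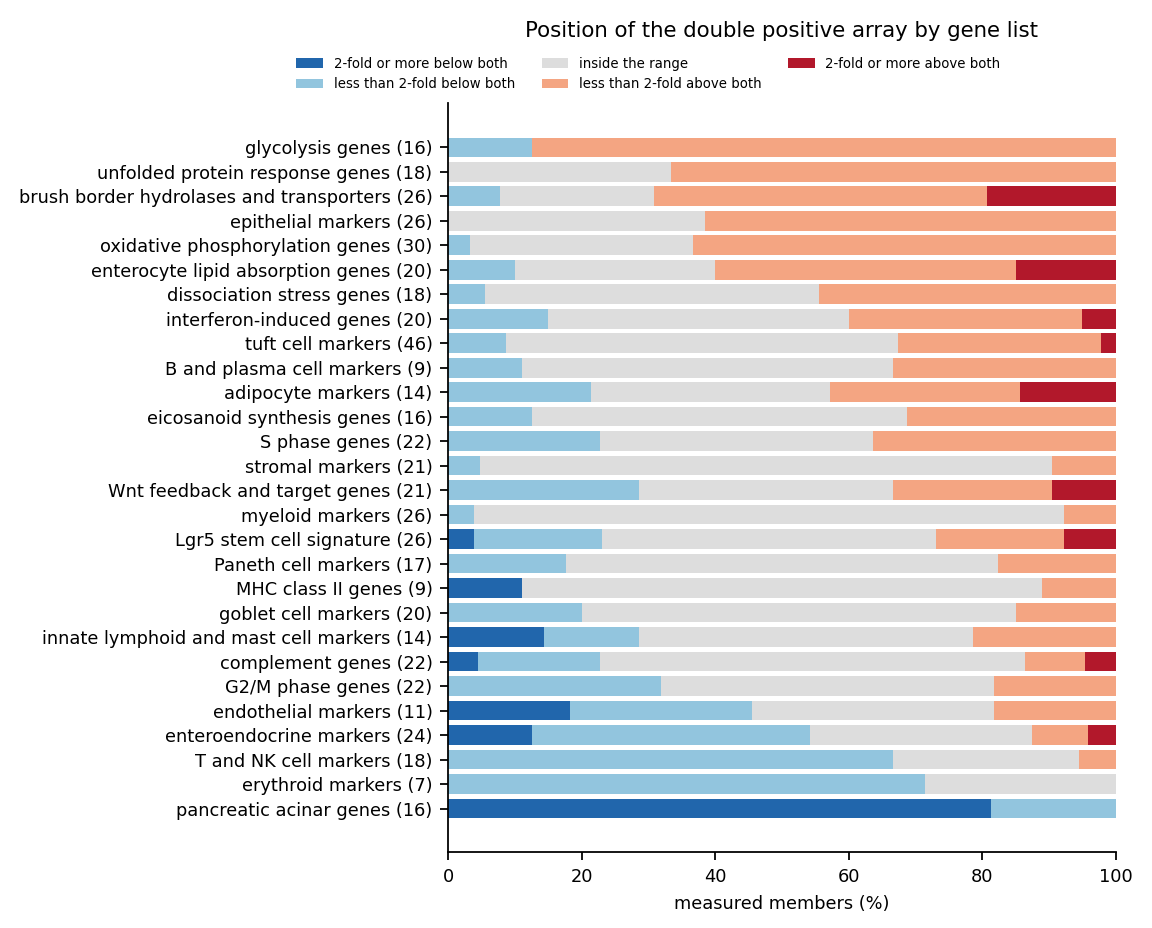
Percent of the measured members of each list (x axis; lists on the y axis with their number) by the position of the double positive array against the single positives. Pancreatic acinar genes have 13 of 16 members at least 2-fold below both, myeloid markers 23 of 26 inside, and brush border genes 5 of 26 at least 2-fold above both.

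The Lgr5 stem cell signature had a median close to that of all genes. Of 26 measured members 13 lay inside the range (35.5% over all genes). At least 2-fold above both were 2 (2.43%), and at least 2-fold below both was 1 (3.27%). The median was -0.03, or 0.13 with arrays scaled to their median, where all genes had 0.15. Smoc2, a matrix protein of crypt base cells, stood at -0.81 between 0.02 and -2.47, and Lrig1, a growth factor receptor inhibitor, at 1.04 between 1.42 and -0.95. Msi1, an RNA-binding protein of progenitors, stood at 1.29, below 2.41 and 2.62, by 1.12. Agr3, a protein disulfide isomerase relative, stood at -1.77, above -3.65 and at most -3.66, by 1.89 (error 0.36). Fstl1, a secreted glycoprotein of fibroblasts too, lay 1.41 below the midpoint. Smoc2, Lrig1 and Msi1 were chosen after their values were seen.

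Of 21 measured Wnt feedback and target genes 8 lay inside the range (35.5% over all genes). The list had a median of -0.08, or 0.08 with arrays scaled to their median. Those above both by at least 2-fold were Sp5, a Wnt-induced transcription factor, and Znrf3, a ubiquitin ligase that removes Wnt receptors. Sp5 stood at -1.14, above -2.53 and -2.59, by 1.39. Znrf3 stood at -0.59, above -1.60 and -2.27, by 1.31 over the midpoint, but its other 2 probes were not well above background in double positive cells and had a median difference of -0.31. Nkd1, an inhibitor induced by Wnt, stood at -1.61, above -2.52 and at most -3.66, by 0.92. Axin2, the standard Wnt target, stood at 0.03, above -0.44 and -1.20, while Notum, a secreted Wnt inhibitor, stood at 2.65, below 3.05 and 3.25. Members of this feedback group thus lay on either side of the range. Axin2 and Notum were chosen after their values were seen.

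Epithelial, energy metabolism and unfolded protein response lists had medians above that of all genes. Over all genes 31.1% lay less than 2-fold above both and 35.5% inside the range. Epithelial markers had a median of 0.44, with 10 of 26 inside the range and the other 16 less than 2-fold above both. Among them the keratin gene Krt20 was 0.94 and the desmosome gene Dsp 0.87 above the midpoint. Glycolysis genes had none of 16 inside the range and 14 less than 2-fold above both, with a median of 0.49, and 0.83 for double negative cells. Hk1, hexokinase, was 1.41 above the midpoint, but its second probe was 0.44 below, and the carriers Slc16a3 and Slc2a1 were 0.71 and 0.68 above. Oxidative phosphorylation genes had a median of 0.35, with 19 of 30 less than 2-fold above both, and 0.71 for double negative cells. The respiratory chain genes Uqcrc1 and Sdhb lay 0.73 and 0.60 above the midpoint. Unfolded protein response genes had a median of 0.24, with 12 of 18 less than 2-fold above both, Pdia6 at 0.72, Xbp1 at 0.62 and Creld2 at 0.55. By summed signal, both single positives lay below double positive and double negative cells in the epithelial list (317 and 329 against 435 and 386) and in glycolysis (376 and 419 against 561 and 717).

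**Figure D5:**
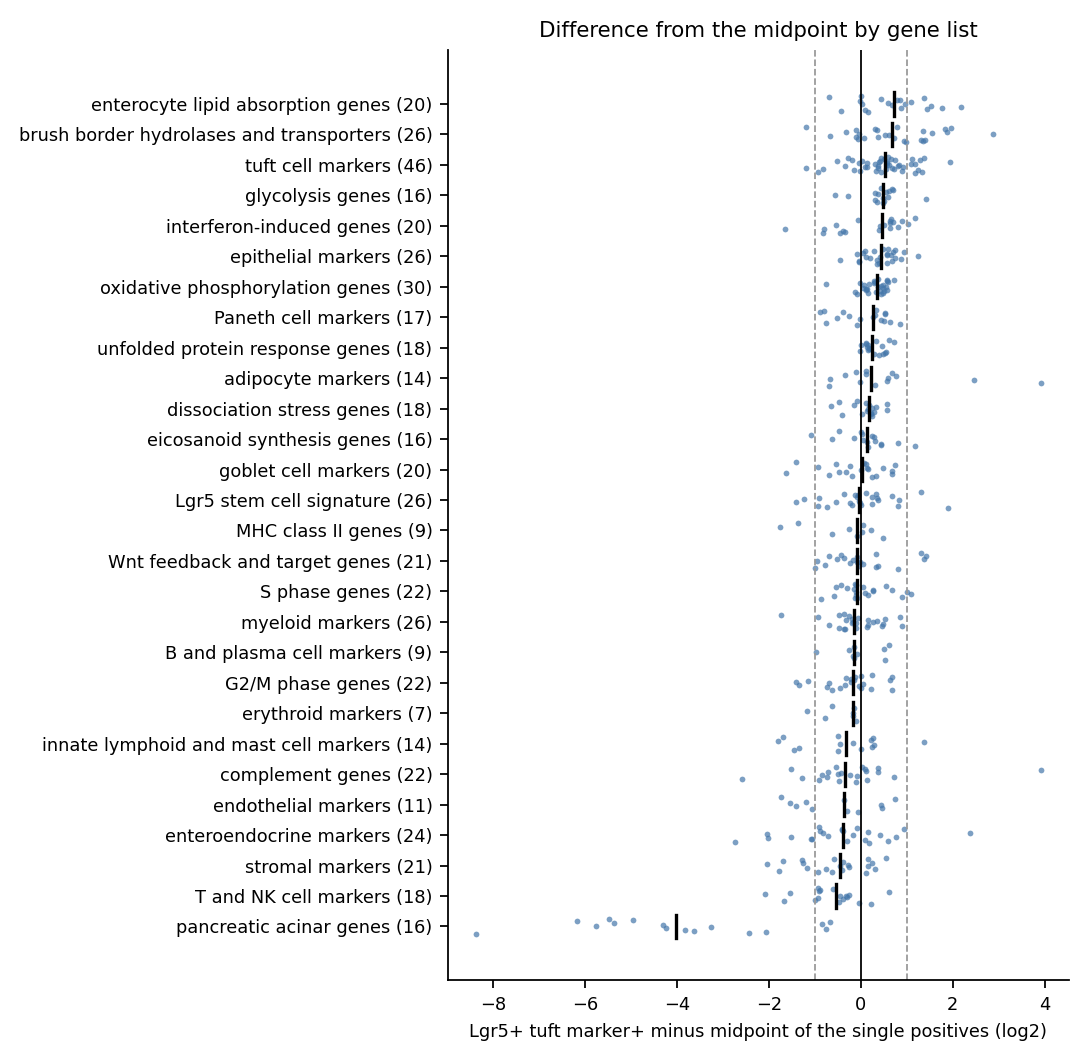
Log2 difference of double positive cells from the single positive midpoint (x axis) for the measured members of 28 gene lists (y axis, with their number); points are genes, bars list medians and dashed lines 2-fold. List medians run from -4.03 for pancreatic acinar genes to 0.73 for lipid absorption genes.

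Cell cycle and dissociation stress lists had medians within 0.2 of the midpoint, and interferon-induced genes lay above it. G2/M phase genes had a median of -0.17, with 3 of 22 at least 2-fold below the midpoint (7.6% over all genes). The mitotic kinesin gene Kif11 stood at -2.59, near -2.73 in tuft single positive and below -0.44 in Lgr5 single positive cells. Kif20a, another kinesin, stood at -0.60, below 0.82 and 0.21, and the phosphatase gene Cdc25c was not well above background in double positive cells. S phase genes had a median of -0.09, or 0.06 with arrays scaled to their median and 0.13 with the mean of all probes. Their members farthest from the midpoint were the helicase genes Mcm2 at 1.08 and Mcm5, at 2.50 and 0.65 above the higher single positive, and the nuclease gene Fen1 at 0.89. Double negative cells had medians of 0.66 and 0.58 for these lists against the same midpoint. Dissociation stress genes, which respond to the isolation of cells, had a median of 0.17, with 9 of 18 inside the range (35.5% over all genes). Among them Ier3 lay 0.64 below, and Jund and Hspa1a 0.58 and 0.57 above the midpoint. Interferon-induced genes had a median of 0.46, with 9 of 20 inside (35.5% over all genes). Above both were 7 by less than 2-fold (31.1%) and 1 by at least 2-fold (2.43%). Ifit3 lay 1.66 below the midpoint, and Usp18 and Oas2 1.18 and 1.03 above, the second probe of Oas2 at 0.14.

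Double negative cells were set against the same midpoint to show what another array gives. Both comparisons share the single positive arrays, so they are not independent, and the values only stand side by side. Of 18525 genes, 15678 (84.6%) were less than 2-fold from the midpoint in double negative cells, 846 (4.57%) at least 2-fold above and 2001 (10.8%) at least 2-fold below. At least 2-fold above both single positives were 420 (2.27%) and below both 539 (2.91%), together 959 (5.18%), where double positive cells had 1047. Inside the range lay 5503 (29.7%), less than 2-fold above both 5915 (31.9%) and less than 2-fold below both 6148 (33.2%). Of the 847 genes at least 4-fold apart, 611 (72.1%) lay inside the range in double negative cells, 36 (4.25%) above both and 200 (23.6%) below both. The best common share of tuft single positive signal was 1% for double negative and 35% for double positive cells.

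Of the 446 genes at least 2-fold above both single positives in double positive cells, 266 (59.6%) were also at least 2-fold above double negative cells. Of the 446, 78 (17.5%) were not above background in either single positive, so their distance is a lower limit. Of the 601 genes below both, 157 (26.1%) were also at least 2-fold below double negative cells, and 170 (28.3%) were not above background in double positive cells. Cfd, Mme, Retnla and Scd1 belong to the first set, and Slc2a5 and Alpi do not. Amy2a5, Prss2 and Ctrb1 belong to the second.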

How the data were processed

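RNA of 4 sorted populations was hybridised to one-colour Agilent mouse arrays, 1 per population, all on 1 slide and scan. The deposited scanner files hold intensities that Feature Extraction background-subtracted and detrended within each array, per the file headers (version 12.0.3.1; the submitters' processing notes name 11.5.1.1). Its flags (well above background, saturated, outlier) are deposited as other values of 0 or 1, per the file headers. The authors' deposited value table held the same intensities times 1 constant per array, as checked on the files, and was an alternative.

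Control spots and outlier flags were left out, spots of a probe averaged, and each array divided by the 75th percentile of its processed signal. Each gene was read from 1 probe, the brightest on average across the 4 arrays. Gene symbols came from matching the accession of each probe in the files to RefSeq transcripts. Of 56605 probes, 32989 had a match and 23616 had none. Values under the lowest signal well above background were raised to it. Differences from the midpoint carry the propagated scanner error, which covers the spots only. The share of tuft single positive signal is linear, so that 0% is the Lgr5 and 100% the tuft single positive level. Named were the sort and marker genes, the 12 genes farthest above and below both single positives by over 2 errors (other probes, where detected, of the same sign), the 6 with the widest gap inside the range on either side at 8-fold or more, and the 3 members of each of 28 lists farthest from the midpoint, of which some are not reported here. Members and lists were chosen with earlier results of these data known. Scripts were tested on simulated mixtures. Alternatives changed the scaling, background correction, detection flag, probes, floor, midpoint and thresholds. normexp (limma 3.58.1, R 4.3.3, offset 50) used the median spot signal and the local background. Other steps used Python 3.11.15, numpy 2.4.6 and pandas 2.3.3. Promoter sequences came from RefSeq on GRCm38.p6.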

Additional observations from a re-analysis of the deposited data

How the results depend on the processing

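No paired analysis was possible because each population had 1 array. Leaving out a replicate was not possible for the same reason. The count of genes inside the range stayed within 1.5 times of 6532 under all 12 alternatives. Other counts moved. With arrays scaled to their median, 1376 genes lay at least 2-fold above the midpoint, 734 above both single positives and 378 below both. After normexp 147 lay above and 169 below the midpoint, 98.3% within 2-fold of it, 60 above both and 81 below both, with a best share of 47%, and 73 of the 115 named genes moved by more than their scanner error. The share within 2-fold was 87.1% with the authors' values, 89.6% with the other detection flag, 90.0% with no detection filter (best share 66%), 89.7% with the mean of all probes and 80.8% with no floor. With no floor, 2552 genes lay below the midpoint and 1316 below both. A 4-fold margin left 41 above and 49 below both, and a 4-fold threshold 66 above and 118 below the midpoint. Over genes above background on all 3 arrays, chosen after seeing the data, 916 lay below the midpoint. The innate lymphoid and mast cell median was 0.011 with the other flag and with no filter. With the mean of all probes the Paneth median was -0.056, Znrf3 -0.46 and Klrg1 0.022. With the mean of log2 levels as midpoint, which lies lower by construction, the complement median was 0.27 and the stromal 0.14. There Rgs1 was 2.38, Tyrobp 2.13, Mptx2 1.08, Mptx1 0.71, Retnlb 0.12, Defa42 0.55 and Col3a1 0.22 above it. For the other settings the cause was not tested. Signals near background limit the lowest levels.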
